A study of Homo sapiens with 4 samples.

Results

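CEBPG and 7 basic leucine zipper (bZIP) transcription factors tied to it through ATF4 were examined in RNA-seq libraries labelled NB4, an established human line of acute promyelocytic leukemia. The members were fixed by gene symbol as CEBPG, CEBPA, CEBPB, CEBPD, ATF3, ATF4, ATF5 and DDIT3. All 8 of 8 were found, as 18 of the 28918 transcript entries with a symbol and as 8 of 16504 genes. The libraries were 2 controls with CEBPG present, labelled NC, and 2 with CEBPG knockdown, labelled CEBPG3. In the study, knockdown was made with lentiviral short hairpin RNAs in a puromycin vector, with selection of stably infected cells, and the number 3 was read as the third CEBPG hairpin, which is an assumption. A single hairpin therefore stands for the knockdown, and nothing in the labels says whether replicates were separate cultures, so p-values measure only the spread between these libraries.

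Transcription factors of the bZIP class bind DNA as dimers, through a basic region that contacts the bases and a leucine zipper that pairs the partners. CEBPG is a short member of the CCAAT enhancer binding protein (C/EBP) family that lacks a strong activation domain and pairs with other C/EBP proteins and with ATF4. ATF4 is the main effector of the integrated stress response, which raises its translation when the initiation factor eIF2 is phosphorylated, and dimers of ATF4 with C/EBP proteins bind a composite element upstream of genes for amino acid supply.

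Levels were read as FPKM, a fragment count corrected for transcript length and library size, summed over the transcripts of a gene, and can be compared between genes. Read depth was unknown, so no counting error is given. Differences between groups were tested with limma on log2(FPKM + 1), over all 10968 genes that averaged 1 FPKM or more, with Benjamini-Hochberg adjustment, and a gene was called at an adjusted p under 0.05. In an exact permutation test of a single gene, 2 against 2 libraries cannot give a 2-sided p below 0.333, so no such test was used. The sums of FPKM were 345340 to 366139 per library, and 10875 to 10964 genes reached 1 FPKM. Of 15 promyelocyte and myeloid markers, 10 were under 1 FPKM in every library, among them PRTN3, AZU1 and CSF3R, whereas 15 of 18 erythroid markers were over 10 FPKM in every library, with HBG2 at 2890 to 3766 FPKM and GATA1 at 109.9 to 128 FPKM. These values go against a promyelocytic profile, so the cells are referred to as the libraries labelled NB4. The summed erythroid markers were 8154 to 8631 FPKM in the controls and 9071 to 9633 FPKM under knockdown, and the summed myeloid markers were 48.3 to 48.5 and 49.4 to 50.2 FPKM. Within that sum, LYZ was lower, at 20.1 and 18.1 FPKM in the controls and 15.0 and 15.5 FPKM under knockdown, while CD33 went from 4.31 and 7.57 to 9.77 and 9.41 FPKM and SPI1 from 15.6 and 15.2 to 17.1 and 17.2 FPKM, each without overlap. The megakaryocyte markers ITGA2B, at 5.89 and 5.02 FPKM in the controls and 8.06 and 7.24 FPKM under knockdown, and GP1BB, at 48.5 and 35.7 FPKM and then 52.6 and 49.2 FPKM, were also higher under knockdown without overlap. The part of these marker shifts in the results below was not tested.

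To address which of the partners moved with CEBPG, all 8 genes were read in each library. Of the 7 that passed the filter on low values, CEBPG and ATF5 were lower in the knockdown, and the other 5 were not called. These 2 of 7 stand beside 20.9% of all tested genes called in either direction, 9.99% called lower and 10.9% called higher. CEBPG is the gene targeted by the hairpin, so its fall was set by the design. ATF5 was the only partner called. The threshold used in the study was a p under 0.05 together with a log2 change beyond 1 in size. The p was read here as unadjusted. With the limma values, CEBPG and ATF5 both passed this threshold, against 0.602% of all tested genes. The study used DESeq2 and reported more genes in NB4 cells, so this share is not the study's own rate. The control and knockdown libraries did not overlap in 6 of the 7, but this was the case for 64.8% of all tested genes. The median log2 fold change of the 7 was 0.085, beside 0.015 for all tested genes.

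**Figure D1:**
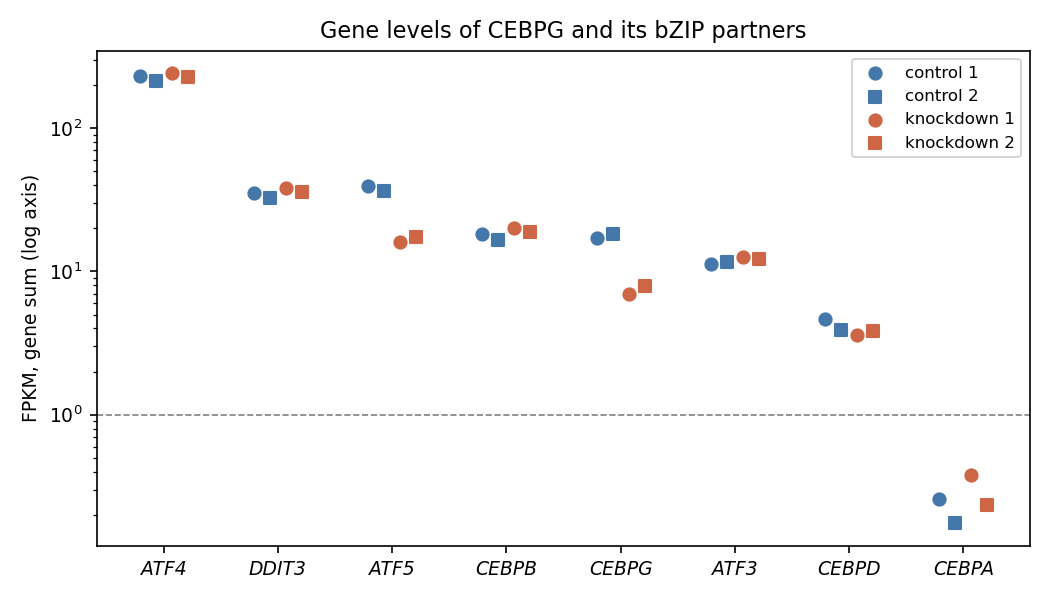
FPKM of each gene (log axis) in 2 control (blue) and 2 knockdown (orange) libraries, with replicate 1 as circles and replicate 2 as squares. The dashed line is the 1 FPKM of the filter, and CEBPG and ATF5 are the genes where the knockdown points sit clearly below the control points.

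CEBPG, the gene targeted by the hairpin, was at 17.1 and 18.1 FPKM in the controls. It was at 6.91 and 7.96 FPKM under knockdown, both below both controls. The knockdown mean was 42.2% of the control mean, with a log2 fold change of -1.14 (SE 0.082, 95% interval -1.34 to -0.95, limma adjusted p = 0.000836). Nearly all of this signal came from the transcript NM_001806, which held 99.7% of the control and 99.1% of the knockdown level of the gene. The second transcript, NM_001252296, stayed between 0.030 and 0.082 FPKM and was too low to be tested. Tested among 15795 transcripts, NM_001806 had a log2 fold change of -1.15 (limma adjusted p = 0.0587), so the call of CEBPG rests on the gene sums.

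CEBPG lies on chromosome 19 at chr19:33373685-33382686 on the plus strand (GRCh38, GENCODE release 44). CEBPA lies in the same region at chr19:33299934-33302534 on the minus strand, with a gap of 71150 bases between the 2 genes. RefSeq gives CEBPG 2 transcription start sites, 404 bases apart. The element bound by ATF4 and C/EBP dimers was searched as TGATGNAA, on both strands, in windows from 250 bases before to 50 after each RefSeq start (GRCh38.p14). It was found in 3.62% of 35116 windows, belonging to 4.46% of 27305 genes. Among the 7 members with a window it was found in CEBPG and ATF3. It was also found in 13 of 37 ATF4 target genes with a window, whose fold changes are summarized further below. The following stretches are shown because they place the element of CEBPG beside those of target genes. Each is 5′ to 3′ on the strand of the gene, with the match, or its reverse complement, in capitals.
CEBPG: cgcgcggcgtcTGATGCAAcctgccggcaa
ATF3: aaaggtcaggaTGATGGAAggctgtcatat
ASNS: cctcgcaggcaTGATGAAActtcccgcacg
SLC1A5: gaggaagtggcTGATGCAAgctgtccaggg
CHAC1: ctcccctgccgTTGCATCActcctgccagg
The CEBPG stretch (chr19:33374060-33374089, plus strand) starts its match 42 bases before the second start site and lies in the first intron of the GENCODE transcript CEBPG-201. The others are chr1:212565205-212565234 (plus strand) for ATF3, with the match 191 bases before a start, chr7:97872458-97872487 (minus) for ASNS, at 68 bases, chr19:46784893-46784922 (minus) for SLC1A5, at 97 bases, and chr15:40953251-40953280 (plus) for CHAC1, at 209 bases. CEBPG and SLC1A5 carry the same 8 letters, and the capitals of CHAC1 are their reverse complement. Such a match is a description of letters and not a measured binding site.

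ATF5, an ATF4-related factor known for its part in the mitochondrial unfolded protein response, was the other member called. It was at 39.2 and 36.6 FPKM in the controls. It was at 15.9 and 17.5 FPKM under knockdown, less than the lower control. The knockdown mean was 44.1% of the control mean (37.9 ± 1.85 against 16.7 ± 1.08 FPKM, SD, n = 2 each). The log2 fold change was -1.14 (SE 0.071, 95% interval -1.30 to -0.97, limma adjusted p = 0.000638), a size like that of the targeted gene. Ordered from the most negative fold change, ATF5 was number 24 and CEBPG number 22 of the 10968 tested genes.

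The fall of ATF5 came from 1 of its 3 transcripts. NM_001193646 was at 35.5 and 33.6 FPKM in the controls and at 10.7 and 11.6 FPKM under knockdown. This transcript changed by -1.55 on the log2 scale (SE 0.073, limma adjusted p = 0.0405 over all transcripts). It was the only one of the 11 tested member transcripts to be called, where 0.158% of all tested transcripts were. The transcript NM_012068 went the other way, from 2.998 and 2.82 FPKM to 4.72 and 5.76 FPKM. Its values did not overlap between groups, with a log2 fold change of 0.67 (SE 0.14), but it was not called (limma adjusted p = 0.127). Its share of the ATF5 level was 7.65% and 7.70% in the control and 29.6% and 33.0% under knockdown. The third transcript, NM_001290746, was between 0.146 and 0.696 FPKM and was not tested. Among 3353 genes with at least 2 tested transcripts, 5.04% had a transcript higher and another lower by over 0.5 on the log2 scale with no overlap between groups, and ATF5 was the only member of this kind. How fragments were divided between transcripts that share exons was not given in the sources used here, so the gene sum is the firmer value.

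**Figure D2:**
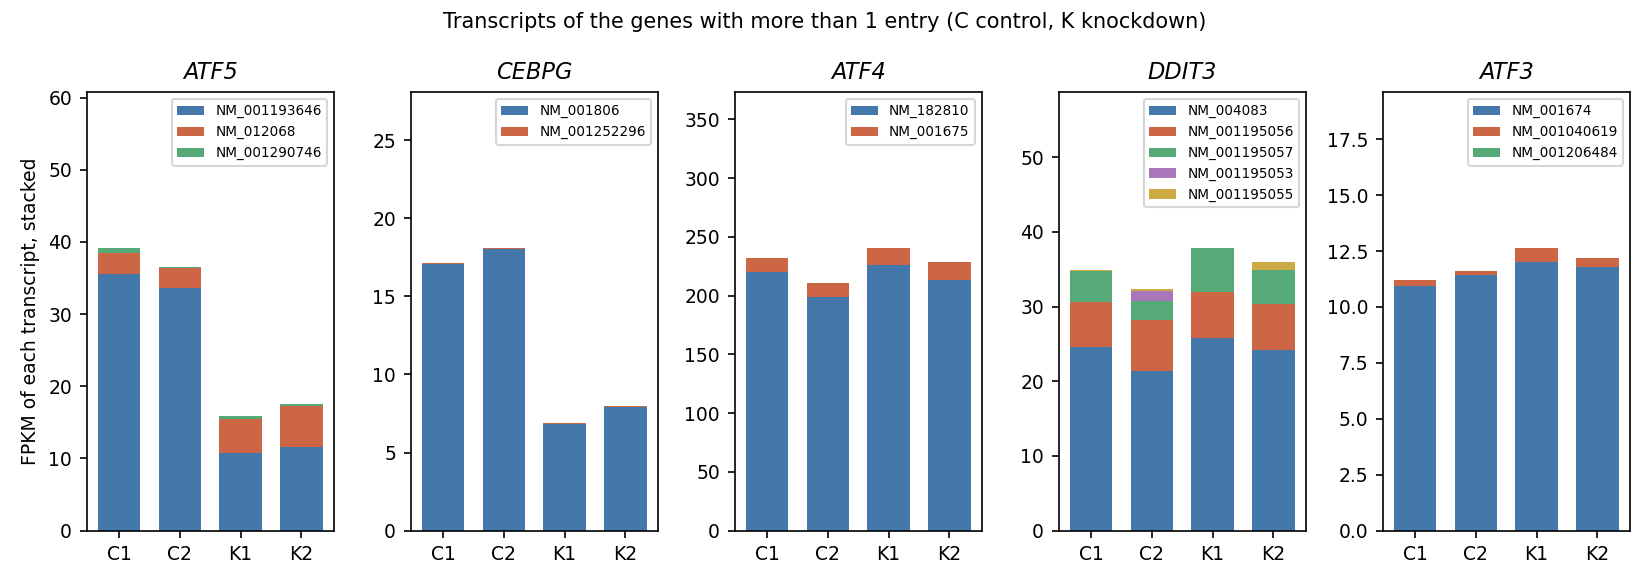
FPKM of each transcript stacked to the gene sum in control (C1, C2) and knockdown (K1, K2) libraries, for the 5 genes with more than 1 transcript entry. The main ATF5 transcript shrinks from 35.5 and 33.6 to 10.7 and 11.6 FPKM while NM_012068 goes from 2.998 and 2.82 to 4.72 and 5.76 FPKM, and the bars of ATF4, DDIT3 and ATF3 stay close to their control height.

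ATF5 lies at chr19:49928702-49933935 on the plus strand (GRCh38, GENCODE release 44), and RefSeq gives it 3 start sites within 1339 bases. Its windows held no TGATGNAA. A C/EBP-type element, searched as TTGCNNAA on both strands, was found in 10.5% of all windows and in 12.7% of genes. Among members it was found in ATF3 and ATF5. A cyclic AMP response element, searched as TGACGTCA, was found in 1.85% of windows and in no member. The 2 ATF5 stretches are shown because it was the partner that fell.
ATF5, before the upstream start: ctggcaggaaaTTCTGCAAgcaaggaaagg
ATF5, at the downstream start: agtggataacaTTGCTGAAgggctgcggcc
The first is chr19:49928791-49928820, with its match starting 104 bases before the upstream start, and the second is chr19:49930242-49930271, with its match starting at base 9 of the transcript from the downstream start. On the opposite strand, exons of NUP62, a nuclear pore gene, cover 565 of the 2892 exon bases of ATF5 (19.5%). Whether counting used strand was not stated. NUP62 was at 54.3 and 50.4 FPKM in the controls and higher, at 63.5 and 63.7 FPKM, under knockdown (log2 fold change 0.28, limma adjusted p = 0.0229), opposite to ATF5.

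ATF4 was the most abundant of the 8 genes by far. It was at 232 and 211 FPKM in the controls and at 241 and 228 FPKM under knockdown, with overlap between groups. Its log2 fold change was 0.085 (95% interval -0.078 to 0.25, limma adjusted p = 0.409). The transcript NM_182810 held 94.7% of the control level, and the minor NM_001675 was at 11.3 and 12.2 FPKM against 14.4 and 14.9 FPKM, a change of 0.30 that was not called over all transcripts (limma adjusted p = 0.165). ATF4 is regulated mainly through its translation, on which these values give no information.

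DDIT3 (CHOP), a C/EBP-like factor induced downstream of ATF4 that dimerizes with C/EBP proteins, was at 34.9 and 32.3 FPKM in the controls and at 37.9 and 36.0 FPKM under knockdown. Its log2 fold change was 0.13 (95% interval -0.024 to 0.29, limma adjusted p = 0.194). The values did not overlap, the knockdown being the higher. Of its 5 transcripts, NM_004083 held 68.4% of the control and 67.7% of the knockdown level. NM_001195056 was at 6.01 to 6.85 FPKM with overlap between groups, and NM_001195057 was at 4.15 and 2.59 FPKM in the controls and 5.89 and 4.52 FPKM under knockdown (0.52, limma adjusted p = 0.33). NM_001195053 and NM_001195055 were each listed at 0 in at least 1 library and at up to 1.36 FPKM in another. Exons of MARS1, on the opposite strand, cover 27.2% of the exon bases of DDIT3, and MARS1 was at 120 to 134 FPKM. Whether counting used strand was not stated, so it is uncertain to which gene reads of the shared exons were assigned.

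ATF3, a stress-induced repressor and activator of the same network, was at 11.2 and 11.6 FPKM in the controls and at 12.7 and 12.2 FPKM under knockdown. The change of 0.11 (95% interval -0.041 to 0.27, limma adjusted p = 0.25) was not called. NM_001674 held 97.9% of the control level. NM_001206484 was at no more than 0.0026 FPKM in any library. NM_001040619 stayed under 1 FPKM, at 0.262 and 0.204 FPKM in the controls and 0.653 and 0.433 FPKM under knockdown.

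Of the C/EBP members with an activation domain, CEBPB, a regulator of emergency granulopoiesis and inflammation, was the highest. CEBPB was at 18.2 and 16.6 FPKM in the controls and at 20.0 and 18.7 FPKM under knockdown, higher in the knockdown without overlap. The change of 0.14 (95% interval -0.028 to 0.32, limma adjusted p = 0.197) was not called. CEBPD, an early response gene of the family, was at 4.65 and 3.905 FPKM against 3.61 and 3.86 FPKM. Its change of -0.15 had a 95% interval of -0.39 to 0.081 (limma adjusted p = 0.302). CEBPA, which directs granulocyte commitment, was at 0.259 and 0.175 FPKM in the controls and at 0.382 and 0.233 FPKM under knockdown. It was below the filter and was not tested. Exons of the noncoding genes ENSG00000267580 and ENSG00000267727, on the opposite strand, cover 25.3% and 18.5% of its exon bases, so this low level is uncertain too.

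**Figure D3:**
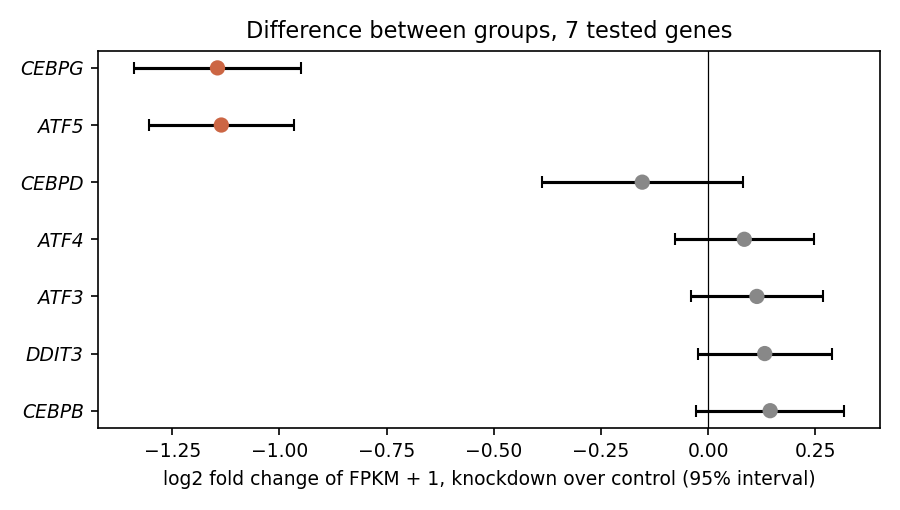
Log2 fold change of FPKM + 1, knockdown over control, with the 95% interval from limma for the 7 tested genes, called genes in orange and others in grey. CEBPG and ATF5 sit together at -1.14, and the intervals of the other 5 all include 0.

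The order of levels therefore differed between groups. In the control libraries it ran from ATF4 through ATF5, DDIT3, CEBPB and CEBPG, ATF3 and CEBPD to CEBPA, where CEBPB and CEBPG overlapped and every other neighbouring pair was apart in both libraries. In the knockdown libraries it ran from ATF4 through DDIT3, CEBPB, ATF5, ATF3, CEBPG and CEBPD to CEBPA, with no overlap between neighbours. The FPKM of CEBPG was 0.938 and 1.09 times that of CEBPB in the controls and 0.345 and 0.425 times under knockdown. Relative to ATF4, CEBPG was at 0.0739 and 0.0859 in the control and at 0.0287 and 0.0349 under knockdown. Of the summed FPKM of the 8 genes, ATF4 held 64.8% and 63.9% in the control and 71.2% and 70.3% under knockdown. ATF5 held 10.97% and 11.1% and then 4.71% and 5.38%.

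Genes with the profile nearest to CEBPG over the 4 libraries were sought by the root mean square difference of centred log2(FPKM + 1) values, among 7608 other genes averaging 5 FPKM or more. The 5 nearest were MNAT1 at 0.0516, ACSM3 at 0.0626, SETD3 at 0.0641, ATF5 at 0.0648 and LYN at 0.0696. MNAT1, a subunit of the CDK-activating kinase, was at 13.0 and 13.8 FPKM in the controls and 5.53 and 5.71 FPKM under knockdown. LYN, a SRC-family kinase of blood cells, was at 30.0 and 29.8 FPKM and then at 13.5 and 14.9 FPKM. With 4 libraries, the likeness is mainly that of a fall of the same size.

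Outside the members, the C/EBP family holds CEBPE, needed for late granulocyte maturation, and CEBPZ, a CCAAT-binding protein that has no leucine zipper. CEBPE was at 0.818 and 0.853 FPKM in the controls and 0.950 and 1.31 FPKM under knockdown and was below the filter. CEBPZ was at 37.8 and 38.2 FPKM against 36.0 and 37.8 FPKM, a change of -0.044 (95% interval -0.18 to 0.094, limma adjusted p = 0.623).

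The other bZIP genes comprised 45 symbols, of which 43 were in the table and 31 were tested. Of the 31, 7 were called higher and 2 lower (29%, beside 20.9% of all tested genes), with a median log2 fold change of 0.14 beside 0.015. Among AP-1 subunits, which dimerize with each other and with ATF factors, FOSL1 was at 13.8 and 13.2 FPKM in the controls and 24.0 and 26.7 FPKM under knockdown (0.86, SE 0.074, limma adjusted p = 0.00126). JUND was at 81.1 and 74.0 FPKM and then at 134 and 120.3 FPKM (0.70, SE 0.076, limma adjusted p = 0.00247). JUNB rose by 0.41 (limma adjusted p = 0.0214), from 33.7 and 28.3 FPKM to 42.3 and 40.2 FPKM. In each of the 3 both knockdown libraries lay above both controls. JUN, at 0.24, missed the threshold (limma adjusted p = 0.0516).

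Of stress and secretory bZIP factors, NFE2L2 (NRF2), the regulator of antioxidant genes, changed by 0.26 (limma adjusted p = 0.0233) and its partner MAFG by 0.21 (0.0412). XBP1, of the unfolded protein response, changed by 0.29 (limma adjusted p = 0.037), and CREB3L2, a membrane-bound factor of the secretory pathway, by 0.34 (0.031). NFE2L1, which controls proteasome genes, was lower by -0.29 (limma adjusted p = 0.0191) and CREBL2 by -0.52 (0.0353). CREBL2 is a low gene, at 2.49 and 1.95 FPKM in the controls and 1.39 and 1.10 FPKM under knockdown. ATF6B was uncertain, since its knockdown libraries were at 13.8 and 8.27 FPKM against 6.39 and 6.41 FPKM in the controls (0.66, limma adjusted p = 0.0534). JDP2, a repressor that pairs with JUN, ATF and C/EBP proteins, was too low to be tested, with 1.46 and 1.15 FPKM in the controls and at 0.315 and 0.385 FPKM under knockdown. With 1 knockdown library left out, fewer genes of any kind were called (809 without knockdown 1 and 865 without knockdown 2, against 2288). Of the 9 bZIP genes, FOSL1, JUND and CREB3L2 were still called without knockdown 1, and FOSL1 and JUND without knockdown 2. The fold changes of the others kept their direction, as with JUNB at 0.37 and 0.44, NFE2L2 at 0.23 and 0.29, MAFG at 0.20 and 0.23 and NFE2L1 at -0.28 and -0.30. CREB3L2, at 0.44 and 0.25, and CREBL2, at -0.61 and -0.42, moved more.

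**Figure D4:**
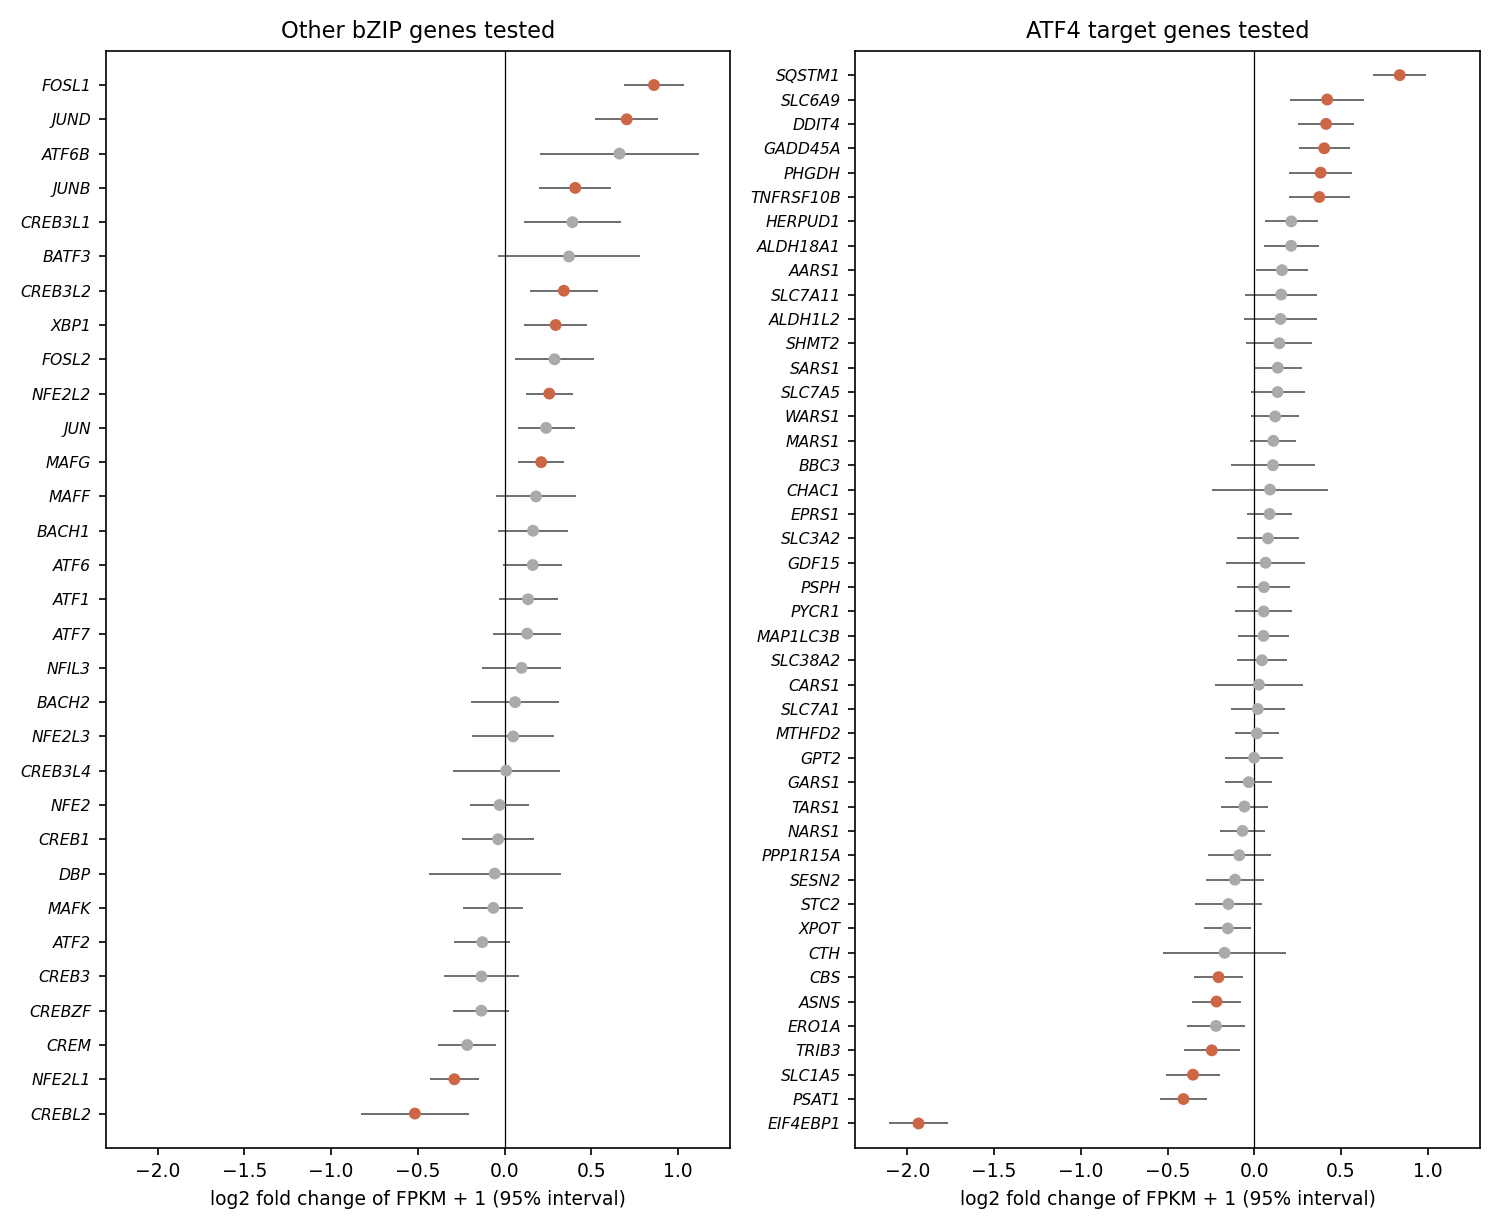
Log2 fold change of FPKM + 1 with 95% intervals for the 31 other bZIP genes tested (left) and the 44 ATF4 target genes tested (right), called genes in orange and others in grey. FOSL1 and JUND lead the bZIP genes at 0.86 and 0.70, and EIF4EBP1 stands alone among the targets at -1.94.

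To address whether genes known to respond to ATF4 moved with its partner, 47 targets were read, of which 46 were in the table and 44 were tested. Of the 44, 6 were called higher and 6 lower (27.3%, beside 20.9% of all tested genes), and the median log2 fold change was 0.055. The largest fall was that of EIF4EBP1, a translation repressor, at -1.94 (SE 0.071, limma adjusted p = 0.000164), followed by the serine synthesis enzyme PSAT1, at -0.41 (0.00539). The glutamine transporter SLC1A5 changed by -0.35 (limma adjusted p = 0.0138), the pseudokinase TRIB3 by -0.24 (0.0466), asparagine synthetase (ASNS) by -0.22 (0.042) and CBS, of cysteine synthesis, by -0.21 (0.0487). ASNS was at 106 and 101 FPKM in the controls and at 87.5 and 90.1 FPKM under knockdown, and SLC1A5 at 197 and 178 FPKM and then 147 and 145 FPKM.

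The 6 higher targets were SQSTM1, SLC6A9, DDIT4, GADD45A, PHGDH and TNFRSF10B. SQSTM1, an autophagy receptor that NRF2 also induces, was at 79.9 and 73.8 FPKM in the controls and at 141 and 135.2 FPKM under knockdown (0.84, SE 0.064, limma adjusted p = 0.000998). DDIT4, an inhibitor of mTOR complex signalling, changed by 0.41 (limma adjusted p = 0.00941). PHGDH, which acts before PSAT1 in serine synthesis, changed by 0.38 (limma adjusted p = 0.0173) from 1264 and 1137 FPKM to 1608 and 1519 FPKM, opposite to PSAT1. SLC6A9, a glycine transporter, changed by 0.42 (limma adjusted p = 0.021), the growth arrest gene GADD45A by 0.40 (0.00717) and the death receptor TNFRSF10B by 0.37 (0.0163). CHAC1, SESN2 and PPP1R15A, further targets of ATF4 and DDIT3, changed by 0.090, -0.11 and -0.087 and were not called (limma adjusted p = 0.683, 0.3 and 0.447). Without knockdown 1, EIF4EBP1 and SQSTM1 were the only targets still called, and without knockdown 2 they were joined by PSAT1 alone. The fold changes moved little in several that lost their call, with GADD45A at 0.40 both times, SLC1A5 at -0.36 and -0.34, TNFRSF10B at 0.38 and 0.37 and CBS at -0.20 and -0.21. TRIB3 moved more, at -0.29 and -0.20.

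Some called targets had no promoter window and are left out here, EIF4EBP1 with the largest fall among them. Of the 13 targets with TGATGNAA in a promoter window, 12 were tested. ASNS and SLC1A5 were called lower and 0 were called higher (limma, with 2 higher at an unadjusted p under 0.05), with a median of 0.023 and a range from -0.35 to 0.21. Of the 23 tested targets with a window and no match, 4 were called higher and 3 lower, with a median of 0.053. Over all tested genes 10.9% were called higher and 9.99% lower, so these small counts lie near the background. The difference between the groups with and without a match was not tested.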

How the data were processed

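RNA was measured in 4 human cell line libraries, 2 control and 2 CEBPG knockdown. Per the labels, a TruSeq kit turned total RNA into libraries, and per the processing notes of the submitters reads were mapped with HISAT2 2.0.5 and the build was hg38. The authors deposited FPKM values, 1 column per library and 1 row per RefSeq transcript (29265 rows). The quantifier and annotation release were not given in the sources used here. FPKM gives no counts, so precision rests on the replicates alone.

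Rows without values (183) or a gene symbol (164, with 0.25% of FPKM) were left out and the rest were summed per symbol. Genes averaging 1 FPKM or more were compared on log2(FPKM + 1) with limma 3.58.1 in R 4.3.3 (linear model, empirical Bayes with a mean trend, 2-sided, Benjamini-Hochberg over all tested genes), and transcripts likewise. The script was tested on simulated data. Members and gene lists (other C/EBP and bZIP genes, ATF4 targets, blood cell markers) were chosen with earlier results of these data known, from general knowledge. Named genes were the members, CEBPE, CEBPZ, called genes of the lists, 8 fixed genes (ASNS, TRIB3, CHAC1, SESN2, DDIT4, PPP1R15A, EIF4EBP1, JDP2) and the 5 nearest profiles. JUN and ATF6B were named after their values were seen. Lymphoid markers (3 of 4 in the table) were under 1 FPKM in every library, and 2 of 5 megakaryocyte markers were in the table. Locations came from GENCODE release 44 and promoter windows from RefSeq (GRCh38.p14), the build of the labels. Windows were at hand for 7 members. Median absolute log2 differences between replicates were 0.09 (control) and 0.076 (knockdown), and 0 tested genes had identical values. Alternatives were another pseudocount, other filters, scalings, moderation without a trend, a block for the replicate number, single transcripts tested instead of gene sums, and omission of each library.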

Additional observations from a re-analysis of the deposited data

How the results depend on the processing

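ATF5 remained called lower in all 12 alternatives, with log2 fold changes of -1.55 to -1.07 and a highest adjusted p of 0.0405 (limma). CEBPG ranged from -1.24 to -1.05 and was lost only with transcripts in place of gene sums (-1.15, adjusted p = 0.0587, limma). Left-out libraries gave CEBPG -1.23 to -1.05. The count of called genes, 2288, was 882 with no filter on low values, 25 for transcripts, and 809 to 1931 with a library left out. Called members went from 2 to 1 for transcripts. Called bZIP genes went from 9 to 4 with no filter, 0 for transcripts (limma, with 14 of 47 at an unadjusted p under 0.05) and 3 to 7 with a library left out. Called ATF4 targets went from 12 to 4, to 1, and to 2 to 11 in the same order. Counts rose to 13 bZIP genes and 18 targets with the replicate block, and to 10 and 15 with median-ratio scaling or a mean of at least 5 FPKM. The share of higher genes among all calls was 46.7% after scaling to one sum, 62.9% without control 1 and 43.2% without control 2. Of the tested genes named by rule, CHAC1 and PPP1R15A, neither called, changed direction, CHAC1 running from -0.13 to 0.31 and PPP1R15A from -0.18 to 0.0028 with a library left out, the reversals coming without control 2 and control 1. Of 27 such genes called, 27 remained with a pseudocount of 0.1 and with either scaling, 21 without the mean trend, 13 with no filter, 11 without knockdown 1, 11 without knockdown 2 and 2 for transcripts. With the replicate number as a block, 3440 genes were called, the 27 among them, and the fold change of CEBPG was -1.14. The labels tie replicate numbers to nothing shared, and the correlation of their deviations across genes was 0.101.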

Other observations

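Transcripts of CREBZF, a bZIP protein that binds ATF4 and host cell factor, also moved apart, although the gene sum changed by only -0.13 (limma adjusted p = 0.201). The noncoding transcript NR_028025 was at 5.18 and 5.64 FPKM in the control and 3.18 and 3.16 FPKM in the knockdown libraries, and NR_028024 was at 0.959 and 1.40 FPKM against 1.65 and 2.75 FPKM. The main transcript NM_001039618 was between 8.29 and 9.79 FPKM with overlap between groups. Neither shift was called over all transcripts (limma adjusted p = 0.106 and 0.338). CREBZF was chosen here after its values were seen.

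Most of the FOSL1 level lay in NM_005438 (log2 fold change 1.03, limma adjusted p = 0.0605, not called over all transcripts), at 9.58 and 9.14 FPKM in the control and 18.9 and 21.5 FPKM in the knockdown libraries. Its transcript NM_001300855 was at 1.35 and 1.84 FPKM in the control and was listed at 0 in both knockdown libraries. JUND NM_001286968 was at 13.0 and 13.4 FPKM in control 1 and knockdown 1 and was listed at 0 in control 2 and knockdown 2, so the split of JUND between its transcripts followed the replicate number and not the group.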
